A study of Mus musculus with 20 samples.

Results

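The protein-coding neighbours of *Mir324* were described, as the genes of mouse chromosome 11 whose gene start (the lower of the 2 end coordinates, whatever the strand) lies between 69012000 and 71012000 in GRCm38. *Mir324* itself spans 70012043 to 70012131 on the plus strand, so the window reaches 1 Mb to each side. It holds 111 protein-coding genes, of which 5 were left out, 4 of them by name and 1 by the first letters of its symbol, and the other 106 were all found by transcript identifier among the 35580 genes summed from the deposited values. The rule uses position and name and no measured value, but it was set with earlier results of these data known. On the plus strand there were 47 and on the minus strand 59, and together they have 549 quantified transcripts.

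A microRNA is cut from a hairpin in a longer RNA, and 1 or both arms of the hairpin then guide a silencing complex to matching sites, mostly in the 3′UTRs of other mRNAs. Pairing of the seed, bases 2 to 8 of the mature arm, is the main part of this recognition. Genes next to a deleted microRNA are also of interest as neighbours, since a deletion may remove DNA that belongs to one of them, and a stretch of chromosome around an edited site is inherited together with it.

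Samples came from WT mice and from miR-324-null mice, which lack *Mir324* in every cell through a short CRISPR/Cas9 deletion. The founders were of mixed C57BL/6 and CBA/ca origin, and the line was bred onto C57BL/6J, the strain given for all samples. All mice were male and 13.5 months old. From hippocampus and from neocortex, labelled as cerebral cortex, 5 samples of each genotype were sequenced, giving 4 groups and 20 samples. The labels do not say which hippocampus and which neocortex came from the same mouse.

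The mature arms are shown because the deletion takes both of them away. In the RNA below, capitals mark the seed, and the hairpin positions of the arms on chromosome 11 are 70012060 to 70012082 for miR-324-5p and 70012095 to 70012114 for miR-324-3p, by the RefSeq entries on GRCm38.p6.
mmu-miR-324-5p: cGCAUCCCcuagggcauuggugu
mmu-miR-324-3p: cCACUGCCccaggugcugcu

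Among the neighbours named below by position or by genotype, *Dvl2* and *Kif1c* have a match to a seed in an annotated 3′UTR, and these DNA stretches are shown with the 7 matched bases in capitals and 8 bases to each side. *Dvl2* has 1 match to the miR-324-3p seed, at chr11:70010147-70010153 on the plus strand. *Kif1c* has 1 match to the miR-324-3p seed, at chr11:70729706-70729712, and 2 to the miR-324-5p seed, at chr11:70730110-70730116 and chr11:70730465-70730471, all on the plus strand.
Dvl2, miR-324-3p match: gcgaggcaGGCAGTGgagaggag
Kif1c, miR-324-3p match: ctgtgaggGGCAGTGgggtctgt
Kif1c, first miR-324-5p match: gaagcattGGGATGCtgagacaa
Kif1c, second miR-324-5p match: cacgcttaGGGATGCcacgtgag

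The libraries held between 12752439 and 19617765 estimated counts. The 6 markers of hippocampus summed to 304.5 to 458 CPM (counts scaled to a common library size by the TMM method) in hippocampus and to 25.6 to 63.2 in neocortex, and the 6 of neocortex to 327.7 to 563 in neocortex and 119.6 to 170.7 in hippocampus, so the samples carried the markers of their labels. The 5 choroid plexus markers summed to 4515 CPM in WT hippocampus 3 and 3884 in miR-324-null hippocampus 5, against 40.3 to 137.8 in the other hippocampal samples, and to 798.8 in miR-324-null neocortex 2, against 15.5 to 63.7 in the other neocortical samples. The hippocampal markers were at 29.2 to 63.2 CPM in miR-324-null neocortex and 25.6 to 29.4 in WT neocortex, and the 5 striatal markers at 200.6 to 480.0 and 119.7 to 311.7. The neocortical markers were at 327.7 to 563 CPM in miR-324-null neocortex (median 396.4) and 461.5 to 528.2 in WT neocortex (median 494.8). The part of these marker differences in the genotype results was not tested. *Mir324* was not quantified in these files, so its loss could not be checked here.

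The neighbourhood was rich in expressed genes. Levels were compared between genes in TPM, which scales the counts for transcript length and library size. Over all 20 samples 16 of the 106 genes had a mean of at least 100 TPM, 39 lay between 10 and 100, 22 between 1 and 10, and 29 were under 1 TPM. The median gene was at 11.4 TPM, compared with 5.01 for all protein-coding genes in the files, and 72.6% of the neighbours reached 1 TPM compared with 62.9% of all.

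The 6 with the highest mean level were *Eif5a*, a translation factor (386.7 TPM), *Rnasek*, a small membrane ribonuclease (371 TPM), *Atp1b2*, the β2 subunit of the sodium pump (328 TPM), *Eif4a1*, the RNA helicase of translation initiation (299 TPM), *Gabarap*, an ATG8 protein of autophagosomes that also binds GABA-A receptors (242 TPM), and *Chd3*, a chromatin remodeller of the NuRD complex (221 TPM). Of *Rnasek*, 64.5% of the 31-base words are shared with the readthrough gene *Gm21988*, and of *Eif4a1* 26.2% with other genes, mostly a pseudogene, so the division of their reads is uncertain. At the other end, *Gm40193* had no count in any sample, which leaves it under the 3 counts that a value of 0 allows in each library. These limits and the errors given cover counting and differences between samples only.

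**Figure D1:**
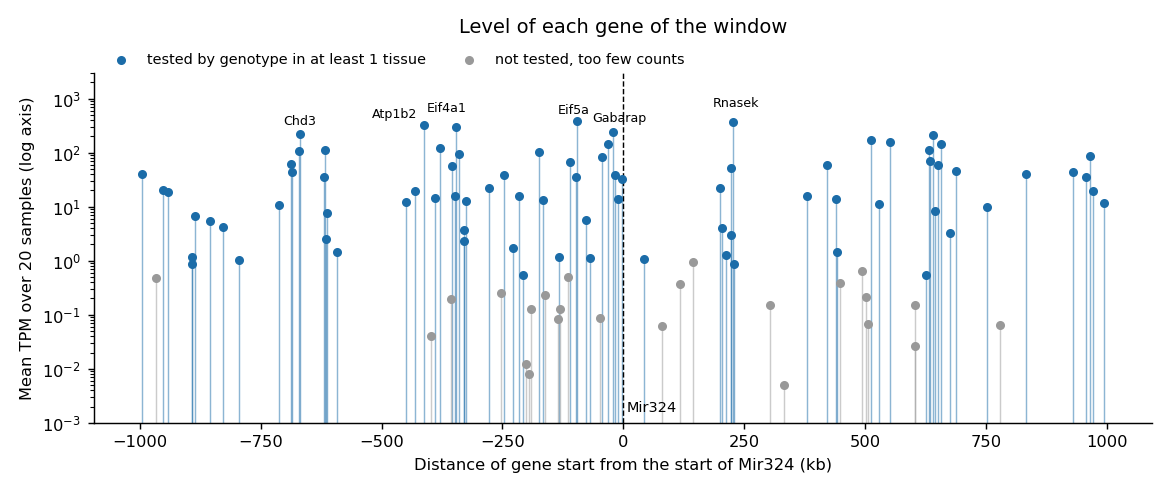
Mean level in TPM over 20 samples (log axis) of the genes of the window against the distance of the gene start from that of *Mir324* in kb. Each line and point is 1 gene, blue where it was tested for genotype in at least 1 tissue and grey where it had too few counts. 105 of the 106 genes are drawn, since *Gm40193* is at 0, and the 6 highest are named.

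Expressed and unexpressed genes were not evenly placed. The first 6 genes upstream of *Mir324* (*Elp5*, *Ctdnep1*, *Gabarap*, *Phf23*, *Dvl2* and *Acadvl*) had mean levels of 14.1 to 242 TPM. Downstream, the first 4, *Asgr1*, *Asgr2*, *Mgl2* and *Clec10a*, which encode lectin receptors of liver cells and macrophages, were at 0.061 to 1.09 TPM. The fifth and sixth, *Slc16a11* and *Slc16a13* of the monocarboxylate transporter family, were at 22.1 and 3.98 TPM. The next genes upstream, *Cldn7* and *Slc2a4*, were at 0.088 and 1.125 TPM, so genes of low level lay on both sides. The placement of expressed genes was not tested.

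*Mir324* lies inside 2 of these neighbours. Its whole hairpin of 89 bases falls in an exon, and there in the 3′UTR, of the 2 long *Dvl2* transcripts, Dvl2-202 and Dvl2-207, and in introns of 3 transcripts of *Acadvl*, which is read from the opposite strand. *Dvl2* encodes a dishevelled protein that passes on Wnt signals, and *Acadvl* the mitochondrial enzyme that starts the oxidation of very long chain fatty acids. The gene bodies overlap, and 33.2% of the 31-base words of *Acadvl* are also found in *Dvl2*. Whether the strand was used in the counting is not given in the sources used here, so reads of the overlap may have been assigned to either gene.

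*Dvl2* was at 14.7, 15.1, 16.4, 18.0 and 20.5 CPM in WT hippocampus and at 21.9, 17.2, 17.6, 14.1 and 16.2 CPM in miR-324-null hippocampus. In neocortex it was at 16.2, 16.5, 19.4, 21.3 and 17.3 CPM in WT samples and 18.1, 18.3, 22.3, 19.4 and 16.1 CPM in the miR-324-null group. The genotypes overlapped in both tissues. The log2 difference, miR-324-null minus WT, was 0.04 (95% interval -0.23 to 0.31) in hippocampus and 0.06 (-0.15 to 0.28) in neocortex, and neither interval reached 0.5 in either direction.

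The 2 long transcripts were given equal values in all 20 samples and were therefore summed. They had 41.5, 36.9, 38.5, 62.3 and 83.3 estimated counts in WT hippocampus and 70.1, 51.1, 90.6, 50.02 and 42.0 in miR-324-null hippocampus. In neocortex the counts were 60.4, 70.8, 54.5, 79.2 and 66.1 in WT and 68.0, 104.8, 117.8, 96.0 and 78.7 in the miR-324-null group. By these estimates they made up 15.3% to 31.8% of the counts of *Dvl2* in single samples. According to the paper, neither genotype had reads on the predicted *Dvl2* variant that contains the *Mir324* locus. The estimates may hold reads of the overlap with *Acadvl*, which was not tested. Neither long transcript passed the test between genotypes, with a log2 difference of 0.20 ± 0.35 (SE, n = 5 per genotype) in hippocampus and 0.23 ± 0.20 in neocortex for each (edgeR adjusted p = 0.9999 and 0.940). Most bases of these transcripts lie outside the deleted stretch, so the values do not report on the deletion.

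*Acadvl* was at 33.9, 35.3, 37.8, 33.0 and 36.9 CPM in WT hippocampus and 38.0, 36.0, 33.7, 35.6 and 38.1 CPM in miR-324-null hippocampus. In neocortex it was at 33.0, 34.5, 37.1, 34.1 and 35.4 CPM in WT samples and 34.1, 38.8, 36.9, 37.5 and 35.4 CPM in the miR-324-null group. The spread within a genotype was as wide as the gap between genotypes, and the log2 differences were 0.04 (95% interval -0.09 to 0.17) and 0.08 (-0.04 to 0.19).

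The other near genes gave the same picture. *Gabarap* was at 137, 133, 116.3, 117.3 and 123 CPM in WT hippocampus and at 129.9, 136, 124, 118 and 127 CPM in miR-324-null hippocampus, with a log2 difference of 0.02 (95% interval -0.11 to 0.15), and of 0.03 (-0.11 to 0.17) in neocortex. *Elp5*, a subunit of the Elongator complex that modifies tRNA, differed by 0.04 and -0.02, *Ctdnep1*, a phosphatase of the nuclear envelope, by -0.05 and -0.03, and *Phf23*, a PHD finger protein, by -0.03 and -0.12 (log2 differences in hippocampus and neocortex). *Slc16a11* differed by -0.07 and -0.05, and *Slc16a13* by 0.02 and 0.18. None of these passed the test, with adjusted p from 0.571 to 0.983 in edgeR. *Elp5* and *Ctdnep1* overlap on opposite strands. *Asgr1* was tested in neocortex only (log2 difference -0.08, 95% interval -1.11 to 0.94), with at most 17.0 counts in any sample. *Asgr2*, *Mgl2* and *Clec10a*, with at most 1.0, 9.9 and 11.2 counts, were not tested, and a difference in them was not detectable at this depth.

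**Figure D2:**
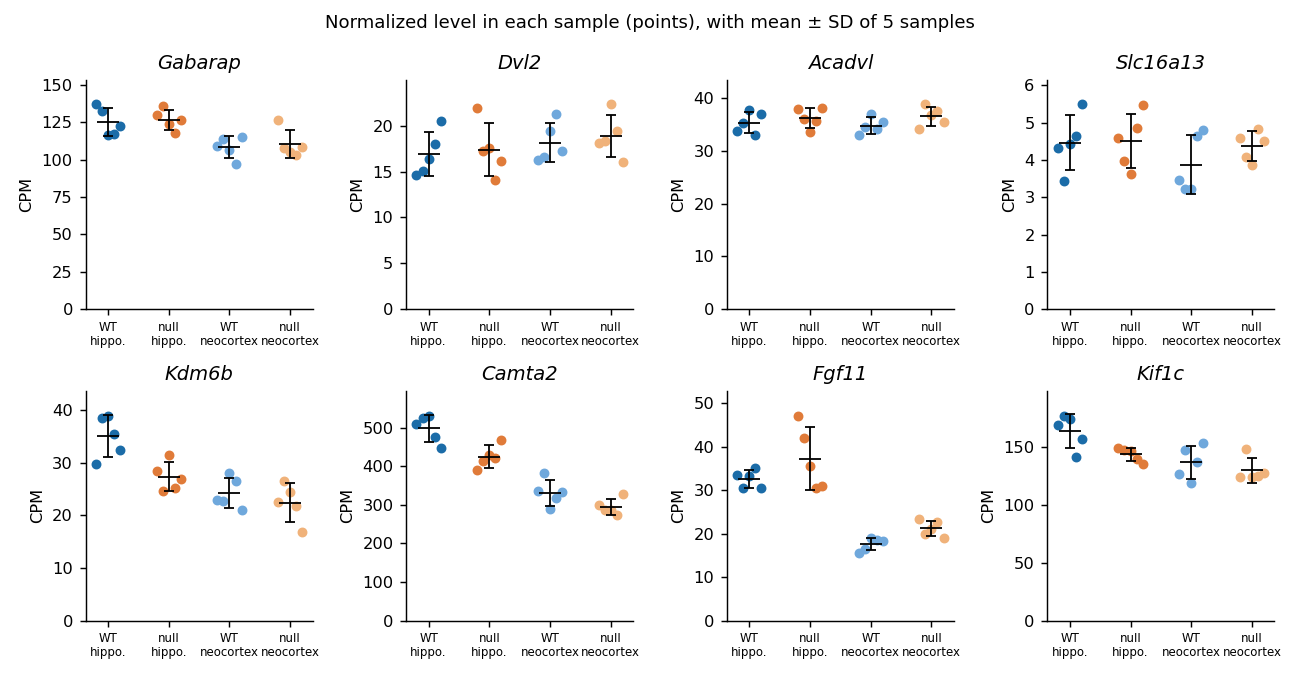
TMM-normalized level (CPM) of 8 genes in each of the 20 samples, with the mean ± SD of 5 samples per group. The upper row holds *Gabarap*, *Dvl2*, *Acadvl* and *Slc16a13*, next to *Mir324*, and the lower row *Kdm6b*, *Camta2*, *Fgf11* and *Kif1c*, which had low unadjusted p values for genotype, and in every panel the genotypes overlap within each tissue.

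Across the whole window, no gene passed the genotype test in either tissue. In hippocampus 80 of the 106 genes had enough counts to be tested, and 0 were called at an adjusted p of at most 0.05 with edgeR, where 17 of 14796 genes (0.115%) were called. In neocortex 80 were tested and 0 called, where 47 of 14930 genes (0.315%) were called. Beside a background this low, 0 of 80 does not set the neighbours apart. Of the 106, 79 were tested in both tissues and 25 in neither, with too few counts.

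At an unadjusted p of at most 0.05 there were 8 of 80 in hippocampus, where 11.1% of all genes lay, and 5 of 80 in neocortex, where 12.2% lay. DESeq2 called 2 of 80 in hippocampus, *Kdm6b* and *Camta2*, where it called 139 of all genes (0.939%), and 0 of 80 in neocortex, where it called 240 (1.61%). With tximport's offset for transcript length, DESeq2 called 0 of 80 in hippocampus (85 of 14796 genes) and 0 of 80 in neocortex (184 of 14930). The paper also used tximport and DESeq2, but its totals differ from these, with more genes in hippocampus than in neocortex. The 2 genotypes did not overlap in 0 of 80 genes in hippocampus, compared with 2.52% of all genes tested, and in 0 of 80 in neocortex, compared with 2.32%.

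The sizes were small as well as uncalled. Of the tested genes, 41 were higher and 39 lower in miR-324-null hippocampus, with a median log2 difference of 0.007 (all genes 0.0012), and 36 were higher and 44 lower in miR-324-null neocortex, with a median of -0.008 (all genes 0.0046). The median absolute log2 difference was 0.061 in hippocampus and 0.073 in neocortex, against 0.091 and 0.079 over all genes tested. The 95% interval lay within 1 on the log2 scale for 79 of 80 genes in hippocampus, with *Tmem102* as the exception (-0.44 to 1.196), and for 78 of 80 in neocortex, with *Cxcl16* and *Asgr1* as the exceptions. For 59 of 80 genes in each tissue it lay within 0.5 on the log2 scale.

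The differences between genotypes were also read by distance from *Mir324*, without a test. In the 10 tested genes that start less than 100 kb below it, the log2 differences ran from -0.14 to 0.06 in hippocampus (median 0.03) and from -0.12 to 0.25 in neocortex (median -0.004). In the 19 tested genes that start 500 kb or more below it they ran from -0.36 to 0.47 and from -0.28 to 0.36, and in the 19 that start 500 kb or more above it from -0.23 to 0.20 and from -0.16 to 0.15. The median absolute log2 difference in hippocampus was 0.040 in the nearest of these 3 groups, 0.109 in the second and 0.083 in the last. In neocortex it was 0.068, 0.102 and 0.063. For genes 100 to 250 and 250 to 500 kb below *Mir324*, the value was 0.105 and 0.056 in hippocampus and 0.1 and 0.058 in neocortex. At the same distances above it, the value was 0.026 and 0.115 in hippocampus and 0.177 and 0.017 in neocortex. The nearest group thus had the smallest value in neither tissue. Only 2 genes start less than 100 kb above *Mir324*, *Asgr1* and *Asgr2*, and neither was tested in hippocampus.

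**Figure D3:**
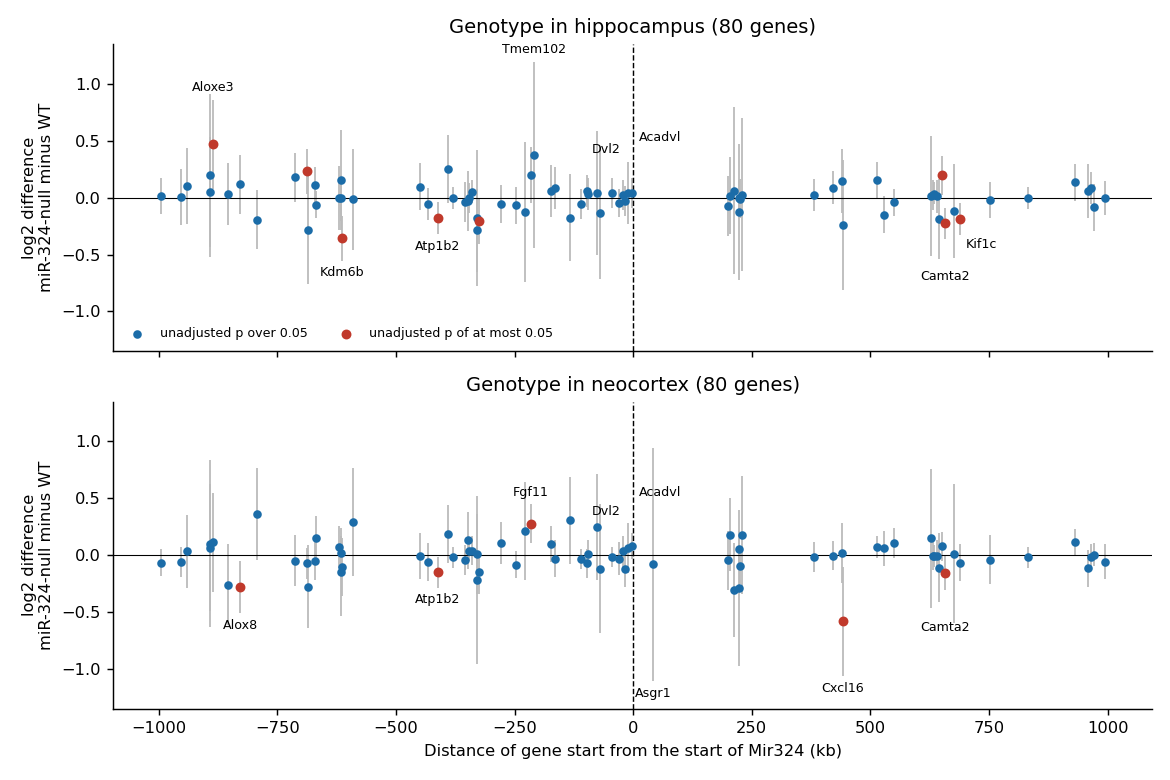
log2 difference between genotypes (miR-324-null minus WT, n = 5 per genotype, bars 95% intervals) against the distance of the gene start from that of *Mir324* in kb, for the 80 genes tested in hippocampus (top) and the 80 in neocortex (bottom). Red points, 8 and 5, had an unadjusted p of at most 0.05, and no gene passed after adjustment.

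The called genes of chromosome 11 lay farther away. Of the other tested genes of the chromosome, of any type, 10 of 1087 were called in hippocampus, out of 17 calls in the genome. Their gene starts ran from 93.9 to 100.2 Mb. In neocortex 19 of 1103 were called, out of 47, with gene starts from 62.6 to 115.6 Mb. These others include any tested gene of the window that is not among the 106. The called gene nearest to *Mir324* was *Utp18* in hippocampus, 23.85 Mb away, and *Lrrc75a* in neocortex, 7.41 Mb away. The difference between the 106 genes and these others was not tested.

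The genes with the lowest unadjusted p were spread over the window. In hippocampus they were *Kdm6b*, *Camta2*, *Kif1c*, *Atp1b2* and *Aloxe3*, and in neocortex *Fgf11*, *Alox8*, *Cxcl16*, *Atp1b2* and *Camta2*. They start between 216.0 and 886.1 kb from *Mir324*, and all of their adjusted p values are over 0.05 in edgeR.

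*Kdm6b*, the demethylase that removes the repressive trimethyl mark from lysine 27 of histone H3, was at 29.9, 38.6, 38.99, 35.6 and 32.5 CPM in WT hippocampus and at 28.5, 24.7, 31.5, 25.1 and 26.9 CPM in miR-324-null hippocampus. The genotypes overlapped through 1 WT and 1 miR-324-null sample. The log2 difference was -0.36 ± 0.09 (SE, n = 5 per genotype, 0.781-fold, edgeR unadjusted p = 0.00184, adjusted p = 0.223), and DESeq2 called it with an adjusted p of 0.0418. With the length offset, DESeq2 did not call it. In neocortex the log2 difference was -0.11 ± 0.12 (adjusted p = 0.777).

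*Camta2*, a calmodulin-binding transcription activator, was at 511, 526, 531, 476 and 447 CPM in WT hippocampus and 390.0, 415, 429.8, 422 and 469 CPM in miR-324-null hippocampus. In neocortex it was at 337, 382, 289, 317 and 332 CPM in WT samples and 300.4, 286, 286, 275 and 329 CPM in the miR-324-null group. In hippocampus 1 miR-324-null sample reached the WT range, and in neocortex 2 did. The log2 differences were -0.23 ± 0.06 in hippocampus (adjusted p = 0.264 with edgeR, 0.0418 with DESeq2) and -0.16 ± 0.07 in neocortex (adjusted p = 0.384 with edgeR). DESeq2 with the length offset did not call *Camta2* in hippocampus.

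*Atp1b2*, whose product is found mainly in astrocytes in the brain, was among the 5 lowest in both tissues too. It was at 624, 635, 548, 551 and 569.6 CPM in WT hippocampus and at 491, 470.4, 569, 536 and 513 CPM in miR-324-null hippocampus. This gave a log2 difference of -0.18 ± 0.07 (edgeR adjusted p = 0.358). In neocortex the log2 difference was -0.15 ± 0.06 (adjusted p = 0.350). Of the 5 samples in each group, the highest miR-324-null sample reached 569 CPM in hippocampus and 561 CPM in neocortex, above the lowest WT samples at 548 and 541 CPM. The 5 astrocyte markers summed to 1262 to 1588 CPM in WT hippocampus and 1356 to 1505 CPM in miR-324-null hippocampus, and to 959 to 1111 and 852 to 1203 CPM in neocortex, and their part in this result was not tested. In bulk tissue fewer cells of a type and less RNA per cell cannot be told apart.

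*Kif1c*, a kinesin motor and the neighbour with the most seed matches, was at 169, 177, 174, 141 and 157 CPM in WT hippocampus and 149, 148, 146, 140.1 and 135 CPM in miR-324-null hippocampus. Of the miR-324-null samples 3 lay above the lowest WT sample and none above the other 4, and the log2 difference was -0.19 ± 0.06 (edgeR adjusted p = 0.344). In neocortex it was -0.07 ± 0.07 (adjusted p = 0.780). Both values are below 0.

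*Aloxe3*, a lipoxygenase best known from skin, was at 9.31, 6.94, 8.97, 9.38 and 10.1 CPM in WT hippocampus and 15.99, 16.02, 10.4, 8.43 and 10.9 CPM in miR-324-null hippocampus, where 2 samples stood above the rest. The log2 difference was 0.47 ± 0.18 (edgeR adjusted p = 0.372), and in neocortex 0.11 ± 0.20 (adjusted p = 0.878).

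*Fgf11*, an intracellular fibroblast growth factor homologue of the kind that binds voltage-gated sodium channels, was at 15.6, 16.5, 19.1, 18.5 and 18.3 CPM in WT neocortex and at 23.4, 20.03, 21.02, 22.7 and 19.1 CPM in miR-324-null neocortex. Only the lowest miR-324-null sample fell within the WT range. The log2 difference was 0.28 ± 0.08 (1.21-fold, edgeR unadjusted p = 0.00411, adjusted p = 0.188), and without miR-324-null neocortex 5 it was 0.31 with an adjusted p of 0.0438, when 566 genes were called in place of 47. In hippocampus the log2 difference was 0.20 ± 0.11 (adjusted p = 0.541). In WT samples *Fgf11* was 1.84-fold higher in hippocampus than in neocortex, and the hippocampal markers had a median of 50.8 CPM in miR-324-null and 26.8 CPM in WT neocortex. Their part in this result was not tested.

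*Alox8*, a lipoxygenase of arachidonic acid, was at 8.09, 7.37, 7.34, 8.56 and 6.77 CPM in WT neocortex and 5.41, 6.40, 7.26, 5.92 and 6.21 CPM in miR-324-null neocortex, a log2 difference of -0.28 ± 0.11 (edgeR adjusted p = 0.310). *Cxcl16*, a chemokine held in the cell membrane, was at 1.69, 1.87, 1.71, 1.83 and 1.58 CPM in WT neocortex and 0.728, 1.71, 0.889, 1.10 and 1.25 CPM in miR-324-null neocortex, a log2 difference of -0.58 ± 0.22 (adjusted p = 0.314). 1 miR-324-null sample lay within the WT range in each. *Cxcl16* shares 18.5% of its 31-base words with *Zmynd15* on the opposite strand.

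The genotype difference was also compared between tissues. Of 81 neighbours tested for the interaction, 0 were called with edgeR or DESeq2 (3 of 15391 genes, 0.0195%, were called with edgeR and 11, 0.0715%, with DESeq2). An unadjusted p of at most 0.05 was reached by 3 of the 81, where 5.57% of all genes reached it.

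Single transcripts were tested the same way, because a change in one transcript can be hidden in the sum of a gene. In hippocampus 0 of 224 tested transcripts of the neighbours were called with edgeR (10 of 34338 in all, 0.0291%), and in neocortex 0 of 227 (9 of 36164, 0.0249%). At an unadjusted p of at most 0.05 there were 12 in hippocampus (4.62% of all transcripts) and 10 in neocortex (6.26%), and DESeq2 called 1 in hippocampus (0.315% of all transcripts) and 3 in neocortex (0.57%). In counts simulated for hippocampus, this test recovered 33.5% of the transcripts changed by 1 on the log2 scale, compared with 96.0% at the level of genes, so a doubling of a transcript would often have been missed. Those changed in the simulation excluded transcripts and genes of low mean count. The genotypes did not overlap for 3 of 224 transcripts in hippocampus (1.25% of all) and 3 of 227 in neocortex (1.51%), and 1 transcript, Camta2-208, was in both counts. How many of all transcripts were in both counts was not determined. Samples of the 2 tissues may come from the same mice, so the 2 counts may not be independent.

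Camta2-208, annotated as a target of nonsense-mediated decay and singled out after its values were seen, had 645, 521, 544, 354 and 358 estimated counts in WT hippocampus and 229, 275, 296, 271 and 329 in miR-324-null hippocampus. In CPM the WT samples lay between 26.7 and 42.7 and the miR-324-null samples between 17.8 and 22.4. In neocortex the WT samples lay between 13.9 and 17.5 CPM and the miR-324-null samples between 5.72 and 13.02 CPM. Every miR-324-null sample was thus below every WT sample of its tissue. The log2 differences were -0.74 ± 0.13 in hippocampus (edgeR adjusted p = 0.432, DESeq2 adjusted p = 0.00085) and -0.74 ± 0.19 in neocortex (edgeR adjusted p = 0.555, DESeq2 adjusted p = 0.0376). In neocortex DESeq2 also called Nup88-202 and Kif1c-204. Kif1c-204 differed by -0.66 ± 0.17 in neocortex and by 0.72 ± 0.57 in hippocampus, with signs that were opposite.

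Seed matches were not common among the neighbours. Of the 103 with an annotated 3′UTR, 4 (3.88%) had a match to the miR-324-5p seed and 10 (9.71%) to the miR-324-3p seed, where 7.77% and 13.5% of 21010 genes had one. Both arms were matched in 2 neighbours, *Zbtb4* and *Kif1c*. The 4 neighbours with a miR-324-5p match ran from -0.19 to 0.18 on the log2 scale in hippocampus, 2 of them higher in miR-324-null samples, and from -0.08 to -0.05 in neocortex. Of the 10 with a miR-324-3p match 9 were tested, and 4 were higher in miR-324-null hippocampus and 3 in miR-324-null neocortex. A match is a description of the sequence and was not tested as a site.

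Between tissues the neighbours did differ, and mostly towards hippocampus. In WT samples 29 of 79 tested genes passed (36.1% of all genes did), 23 of them higher in hippocampus (18.1% of all genes) and 6 lower (18.0%). In miR-324-null samples 21 of 81 passed (27.4% of all genes), 17 higher (13.8%) and 4 lower (13.6%). The share that passed was thus near the background, and the direction was uneven where over all genes it was even. The median log2 difference, hippocampus minus neocortex, was 0.09 in WT and 0.12 in the miR-324-null group, against -0.0008 and 0.0081 over all genes.

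The genotypes gave the same direction for 66 of the 79 genes tested in both, from samples that are not shared. The like share over all genes was not counted, so this does not set the neighbours apart. Of the 29 genes called in WT 65.5% were called in miR-324-null samples, and of the 21 called there 90.5% were called in WT (62.1% and 81.0% over all genes). The 19 called in both were 15 higher and 4 lower in hippocampus, and none was called in opposite directions.

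The steepest difference was that of *Kcnab3*, which encodes a β subunit of voltage-gated potassium channels. It was at 27.1, 29.1, 21.1, 27.5 and 50.7 CPM in WT hippocampus and at 73.5, 87.9, 96.7, 120.0 and 72.4 CPM in WT neocortex. In miR-324-null samples it was at 25.7, 18.4, 34.99, 26.7 and 21.6 CPM in hippocampus and 59.0, 67.4, 71.0, 63.9 and 109.1 CPM in neocortex. No sample of one tissue reached the other tissue's range in either genotype. The log2 difference was -1.54 ± 0.21 in WT (edgeR adjusted p = 5.78e-05) and -1.53 ± 0.19 in the miR-324-null group (adjusted p = 7.3e-05), so hippocampus stood at 0.344-fold and 0.346-fold of neocortex.

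3 other genes were lower in hippocampus in both genotypes. *Cntrob*, a protein of centrioles, differed by -0.59 ± 0.12 and -0.35 ± 0.08, *Rnf227*, a RING finger protein, by -0.46 ± 0.06 and -0.29 ± 0.09, and *Ctc1*, of the complex that completes telomeres, by -0.28 ± 0.07 and -0.19 ± 0.06 (log2 difference in WT samples and in the miR-324-null group, SE, n = 5 per tissue). These 3 were less steady than *Kcnab3*. With edgeR given tximport's offset for transcript length, *Cntrob* was at -0.19 and -0.15 and *Ctc1* at -0.27 and -0.08, and neither passed in either genotype (adjusted p = 0.424, 0.588, 0.117 and 0.716), and *Rnf227* missed in miR-324-null samples (adjusted p = 0.0516). The calls of *Ctc1* and *Rnf227* in miR-324-null samples were also lost on leaving out 1 of several samples, hippocampus 1, 3 or 5 or neocortex 1, 2, 3 or 4 for *Ctc1* and hippocampus 2, 4 or 5 or neocortex 1, 3 or 5 for *Rnf227* (adjusted p from 0.05087 to 0.103).

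Of the genes called higher in hippocampus in both genotypes, *Fgf11* had the largest mean of the 2 log2 differences. It was at 33.6, 30.4, 33.2, 35.1 and 30.5 CPM in WT hippocampus against 15.6 to 19.1 CPM in WT neocortex. In miR-324-null samples it was at 30.6 to 47.2 CPM in hippocampus and 19.1 to 23.4 CPM in neocortex, so the tissues did not overlap in either genotype. The log2 difference was 0.88 ± 0.07 in WT (edgeR adjusted p = 4.45e-07) and 0.82 ± 0.12 in the miR-324-null group (adjusted p = 0.000278). In WT alone *Dnah2*, a dynein heavy chain of cilia, differed by slightly more (0.89 ± 0.18), and in miR-324-null samples, where it did not pass, by 0.60 ± 0.24 (adjusted p = 0.0793). *Dhx33*, a DEAH-box RNA helicase, was at 64.3 to 70.3 CPM in WT hippocampus and 36.1 to 39.8 CPM in WT neocortex, a log2 difference of 0.85 ± 0.05, and at 50.7 to 75.4 CPM and 35.3 to 38.0 CPM in miR-324-null samples, a difference of 0.78 ± 0.10.

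*Aloxe3* (log2 differences of 0.52 ± 0.15 in WT and 0.89 ± 0.22 in the miR-324-null group), *Camta2* (0.59 ± 0.07 and 0.53 ± 0.07), *Pfn1*, the actin-binding protein profilin (0.53 ± 0.06 and 0.56 ± 0.07), and *Chd3* (0.63 ± 0.07 and 0.44 ± 0.08) followed. *Aloxe3* lost its call with the length offset in both genotypes (edgeR adjusted p = 0.12 and 0.0526), and in WT also in the fit of all 20 samples (0.0578). The choroid plexus markers were higher in hippocampus than in neocortex, and with the 3 samples where they were highest left out 30 of 80 neighbours passed in WT (32.2% of all genes) and 16 of 80 in the miR-324-null group (21.0%). *Gabarap*, 20.9 kb from *Mir324*, was higher in hippocampus by 0.21 ± 0.06 in WT and 0.21 ± 0.07 in the miR-324-null group.

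**Figure D4:**
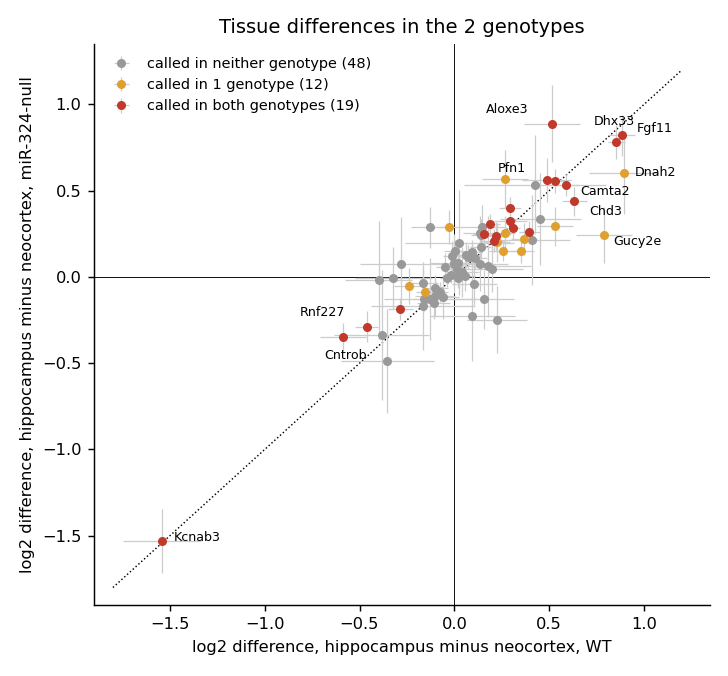
log2 difference between tissues (hippocampus minus neocortex) in WT (x axis) and miR-324-null samples (y axis) for the 79 genes tested in both, with SE bars and n = 5 samples per group. Red points are the 19 genes called in both genotypes, gold points the 12 called in 1, and grey points the 48 called in neither, the dotted line marks equal values, and *Kcnab3* stands alone at the lower left.

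The genes were also grouped by the role of their products. By genotype none of the groups had a called gene in edgeR, so what follows is for tissue. Over all genes tested, 18.1% were called higher and 18.0% lower in WT hippocampus, and 13.8% and 13.6% in miR-324-null hippocampus. In transcription and chromatin, led in level by *Chd3*, *Camta2*, the SUMO protease gene *Senp3* (96.3 TPM) and *Elp5*, 6 of 15 tested genes were higher and 1 lower in WT hippocampus, and 4 higher and 0 lower in miR-324-null hippocampus. The median genotype difference of this group was -0.02 in hippocampus and -0.04 in neocortex.

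In translation and RNA, led by *Eif5a*, *Rnasek*, *Eif4a1* and *Fxr2*, a relative of the fragile X protein (123 TPM), 3 of 9 were higher and 1 lower in WT hippocampus, and 2 higher and 1 lower in miR-324-null hippocampus. *Eif4a1* was higher by 0.31 ± 0.04 and 0.28 ± 0.06 on the log2 scale. *Eif5a* (0.14 ± 0.06 and 0.18 ± 0.07) and *Rnasek* (0.14 ± 0.05 and 0.24 ± 0.10) did not pass. In membrane traffic, cytoskeleton and protein turnover, led by *Gabarap*, *Pfn1*, the proteasome subunit gene *Psmb6* and the kinase gene *Mink1*, 5 of 14 were higher and 1 lower in WT hippocampus. In miR-324-null hippocampus, counted on its own, 5 were higher and 1 lower. *Mink1* was higher by 0.40 ± 0.06 and 0.26 ± 0.06.

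Among ion channels, pumps and receptors, led by *Atp1b2*, *Kcnab3* and *Fgf11*, 2 of 6 were higher and 1 lower in WT hippocampus, and 1 higher and 1 lower in miR-324-null hippocampus. *Atp1b2* itself differed by 0.02 ± 0.06 and 0.01 ± 0.07 between tissues. In mitochondria and transport 2 of 10 were higher and 0 lower in both genotypes. *C1qbp*, which encodes a protein of the mitochondrial matrix, was higher by 0.19 ± 0.05 and 0.31 ± 0.06, and *Slc25a11*, the oxoglutarate carrier, did not pass (0.07 ± 0.04 and 0.12 ± 0.07). Of lipoxygenases and phospholipid enzymes 2 of 6 were higher and 0 lower in WT hippocampus, and 2 higher and 0 lower in miR-324-null hippocampus. Of these only *Aloxe3* was called in both genotypes. In immune and signalling genes, where *Arrb2*, the gene of β-arrestin 2, was highest at 58.2 TPM, 1 of 7 in WT and 1 of 8 in the miR-324-null group was higher and 0 lower, and this was *Arrb2*, by 0.29 ± 0.06 and 0.40 ± 0.07. The macrophage gene *Cd68* did not pass (0.11 ± 0.12 and -0.04 ± 0.12).

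Summed over the 106 genes, the window took 0.516% to 0.533% of the counts of a WT hippocampal library and 0.5003% to 0.513% of a miR-324-null one. These ranges did not overlap. In neocortex it took 0.442% to 0.459% in WT and 0.443% to 0.465% in the miR-324-null group. In CPM the sum was 5119 to 5358 in WT hippocampus (median 5317) and 5005 to 5115 in miR-324-null hippocampus (median 5050), ranges that did not touch. In neocortex it was 4397 to 4715 in WT and 4391 to 4608 in the miR-324-null group, which overlapped. The hippocampal means were 5260 ± 105 CPM in WT samples and 5064 ± 46.8 CPM in the miR-324-null group (SD, n = 5). The largest parts of this gap were the mean differences, miR-324-null minus WT, of *Camta2* (-73.0 CPM), *Atp1b2* (-69.8 CPM) and *Chd3* (-35.1 CPM). In TPM, where length is removed, the sums were 4730 to 4989 in WT and 4847 to 5029 in miR-324-null hippocampus and overlapped. These sums are a description, were not tested and were not set beside those of other windows.

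**Figure D5:**
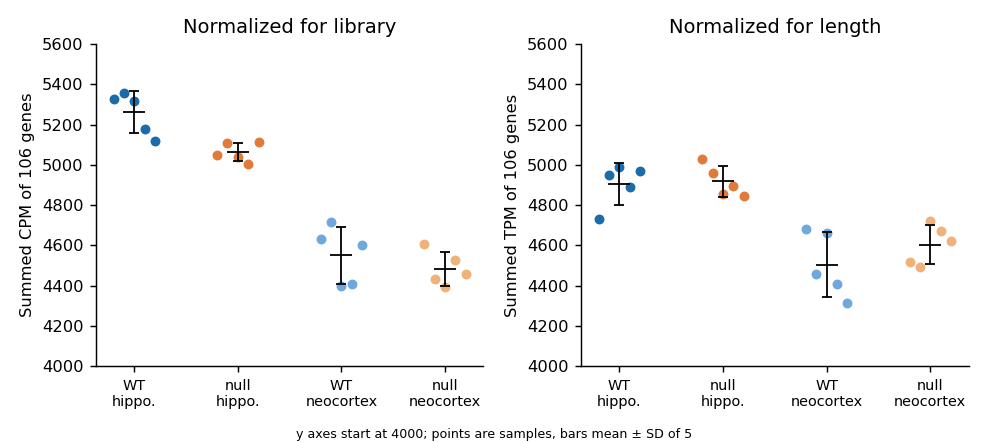
Sum over the 106 genes in each sample, in TMM-normalized CPM (left) and in TPM (right), with the mean ± SD of 5 samples per group and y axes that start at 4000. In CPM the miR-324-null hippocampal samples, 5005 to 5115, lie below all WT hippocampal samples, and in TPM the genotypes overlap.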

How the data were processed

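The authors sequenced stranded mRNA libraries of 20 samples and ran kallisto against mouse transcripts of GRCm38, release 92. Estimated counts and TPM are used as deposited. The kallisto version and strand setting are not given in the sources used here. Of 115270 transcripts, 113580 were matched by identifier to GENCODE and summed to 35580 genes, and 1690 were left out (at most 0.556% of a library). Sums were rounded to whole counts.

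Groups came from the labels. Each comparison was fitted on its own samples in edgeR 4.0.16 (R 4.3.3, limma 3.58.1) with its default filter, TMM scaling, the quasi-likelihood test and Benjamini-Hochberg adjustment over all genes at 0.05, and the 95% intervals come from these fits. CPM uses TMM factors of all 20 samples. Whether samples come from separate mice is taken from the study, and otherwise p-values measure the spread between samples. DESeq2 1.42.0 was an alternative. The edgeR step was tested on simulated counts in which 200 genes had a log2 change of 1. With 14796 hippocampal genes it recovered 96.0% with 7.7% false calls, and DESeq2 98.5% with 17.6%. The changed genes were drawn only above a floor of mean counts, so these shares do not cover genes with fewer counts.

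Genes named in the text are the 6 nearest *Mir324* on each side, the 5 with the lowest genotype p per tissue, the 6 with the largest tissue difference in each direction that passed in both genotypes, the 6 of highest TPM and up to 4 of highest TPM in each functional list. Camta2-208, Kif1c-204, Nup88-202, *Tmem102*, *Gm40193*, *Utp18*, *Lrrc75a*, *Dnah2*, *Zbtb4*, *Cldn7* and *Slc2a4* are named outside that rule or for a count. The members, lists and tests were chosen with earlier results of these data known. Shared sequence was counted in words of 31 bases, and 3′UTRs come from GENCODE. Samples with high choroid plexus markers were chosen to be left out after the data were seen. Python 3.11.15 with numpy 2.4.6 and pandas 2.3.3 was used.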

Additional observations from a re-analysis of the deposited data

Results flagged for a closer look

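Among the 120 groups of 5 samples formed by the genes named by rule, the highest or lowest sample stood far from the other 4 in 9, by a criterion that chance meets in about 5% of groups. In WT hippocampus, *Kcnab3* reached 50.7 CPM in 1 sample against at most 29.1 CPM in the others, *Phf23* 40.9 CPM against 36.7, *Asgr1* 0.978 CPM against 0.524, and *Asgr2* 0.065 CPM against 0. In miR-324-null hippocampus *Asgr2* reached 0.0763 CPM against 0, a single count. In WT neocortex *Ctc1* reached 45.4 CPM against 40.2. In miR-324-null neocortex *Kcnab3* reached 109.1 CPM against 71.0, *Kif1c* 149 CPM against 128, and *Gabarap* 126.5 CPM against 109. *Kcnab3* was the only gene with such a sample in 2 groups apart from *Asgr2*.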

How the results depend on the processing

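The count of neighbours called for genotype in edgeR was 0 in both tissues and 0 for the interaction under every edgeR alternative run on all samples, and the medians by genotype stayed between -0.0051 and 0.0157 in hippocampus and between -0.0177 and 0.0027 in neocortex under the other settings. On leaving out 1 sample they ran from -0.0111 to 0.0347 and from -0.0261 to 0.0027, and the sign turned without WT hippocampus 1 or miR-324-null hippocampus 2 and without miR-324-null neocortex 2. The DESeq2 Wald test called 2 neighbours in hippocampus (139 genes in all) and, of transcripts, 1 in hippocampus (108 in all) and 3 in neocortex (206 in all). With the length offset DESeq2 called 0 neighbours in hippocampus (85 genes in all) and 0 in neocortex (184 in all). On leaving out 1 sample each, the edgeR count lay between 0 and 0 in hippocampus and between 0 and 1 in neocortex, where the call was *Fgf11* without miR-324-null neocortex 5. Between tissues the count was 23 to 31 in WT (4330 to 5362 of all genes) and 16 to 26 in the miR-324-null group (3141 to 5001) under the other settings. On leaving out 1 sample it was 26 to 30 in WT (4799 to 5411 of all genes) and 16 to 21 in the miR-324-null group (3444 to 4145). With the replicate block the counts were 0 and 0 for genotype. For tissue they were 29 in WT (5044 of 14894 genes in all) and 21 in the miR-324-null group (4041 of 15033). *Rnf227* in miR-324-null samples lost its call with the block (edgeR adjusted p = 0.0617). Deviations of same-numbered samples from their group means correlated from -0.27 to 0.29. Between miR-324-null hippocampus and miR-324-null neocortex (-0.05 to 0.29) 3 of 5 samples correlated best with their own number. Between WT hippocampus and WT neocortex (-0.16 to 0.12) 2 did. Such correlations cannot show whether same-numbered samples of the 2 tissues came from the same mouse, and the main fits treated them as unpaired. The block left 4 genes called in hippocampus and 30 in neocortex, compared with 17 and 47. Directions close to 0 turned. *Dvl2* in hippocampus was -0.021 and -0.019 with the length offset in edgeR and DESeq2, and *Slc16a13* -0.036 and -0.033. With the samples of high choroid plexus markers left out, *Slc16a13* was -0.069 and *Gabarap* -0.005 in hippocampus and *Ctdnep1* 0.005 in neocortex. On leaving out 1 sample, the hippocampal values ran from -0.055 to 0.123 for *Dvl2*, -0.067 to 0.103 for *Slc16a13*, -0.005 to 0.054 for *Gabarap*, -0.048 to 0.009 for *Phf23* and -0.148 to 0.001 for *Slc16a11*, and the neocortical ones from -0.061 to 0.026 for *Ctdnep1*, -0.027 to 0.057 for *Gabarap*, -0.274 to 0.224 for *Asgr1*, -0.006 to 0.123 for *Dvl2*, -0.104 to 0.052 for *Slc16a11* and -0.022 to 0.234 for *Aloxe3*. The causes were not tested. Depth leaves 25 of the 106 genes untested by genotype.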
